A study of Mus musculus with 9 samples.

Results

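The cyclin B-Cdk1 switch was described through 10 genes of the fully grown mouse oocyte, taken by symbol from the 24228 usable rows of the deposited expression table. They are the B-type cyclins Ccnb1, Ccnb2 and Ccnb3, the kinase Cdk1, the activating phosphatases Cdc25a, Cdc25b and Cdc25c, and the inhibitory kinases Wee1, Wee2 and Pkmyt1. All 10 had a row, and all 10 passed the filter on low values (at least 1 FPKM in at least 3 of 9 libraries). FPKM is a fragment count scaled by the authors to transcript length and library size, so levels of different genes can be set side by side.

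Cdk1 bound to cyclin B forms the kinase that carries a cell into M phase, also known as maturation-promoting factor. Wee1, Wee2 and Pkmyt1 hold the complex off by phosphorylating residues in the ATP-binding site of Cdk1, and Cdc25 phosphatases remove those phosphates. A fully grown oocyte waits in prophase of meiosis, at the germinal vesicle stage, with this switch held off by cAMP signalling. It resumes meiosis when Cdc25B prevails over Wee2.

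The samples were fully grown germinal vesicle oocytes of C57BL/6 mice labelled MG, in which Mtor was to be deleted by Cre under the Gdf9 promoter, and MZ, in which Cre under the Zp3 promoter was used. They were set against WT oocytes, for which the labels give no floxed allele or Cre. Both promoters are oocyte promoters, and Gdf9-Cre acts earlier in follicle growth than Zp3-Cre. Each group had 3 libraries, and the females had received the gonadotropin PMSG (5 IU) 46 h before their oocytes were taken. The series design puts their age at 23 days and the sample labels at 6 months. The labels do not say how many oocytes or animals stand behind a library, so each p-value rests on the spread among 3 libraries a group, and that spread may be technical. With whole libraries as the sample, fewer transcripts per oocyte and fewer oocytes or poorer capture cannot be told apart. FPKM, scaled to library size, is a relative measure and does not give the amount of RNA per oocyte.

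The libraries held about 526000 to 944000 fragments, summed over genes from FPKM, the longest transcript length and the size of the lowest FPKM steps. These totals depend on the transcript length taken for each gene. At a transcript length of 1 kb, 1 fragment stood for 1.32 to 2.37 FPKM. FPKM sums were 498936 ± 64355 in MG, 670216 ± 10778 in MZ and 652537 ± 67110 in WT (SD, n = 3 each), with the lowest, 428329, in MG 3. MG 3 also had the lowest Gdf9 (7327 FPKM) and Zp3 (555 FPKM), against 14940 and 18400 FPKM of Gdf9 in the other MG libraries. All 9 oocyte markers had at least 1 FPKM in every library, with summed levels of 9939 to 24002 FPKM in MG, 24382 to 25595 FPKM in MZ and 19994 to 23383 FPKM in WT. The 16 granulosa and cumulus markers summed to 22.9 to 39.8 FPKM in MG, 24.0 to 28.9 FPKM in MZ and 20.3 to 34.1 FPKM in WT, and Amhr2 and Foxl2 were at 0 throughout. The 5 blood and immune markers varied more, from 25.6 to 137 FPKM in MG, 18.5 to 168 FPKM in MZ and 41.0 to 51.7 FPKM in WT. The 2 endothelial markers summed to 15.8 to 16.2 FPKM in MG, 7.07 to 14.3 FPKM in MZ and 11.9 to 22.5 FPKM in WT, and the 5 theca markers to at most 1.42 FPKM in MG, 1.35 FPKM in MZ and 0.553 FPKM in WT. The part of these markers in the results below was not tested. Mtor had 5.29 ± 0.68 FPKM in MG, 5.20 ± 1.18 FPKM in MZ and 3.17 ± 0.20 FPKM in WT (SD, n = 3 each). A whole-gene value includes exons outside a deleted part and does not check the deletion, so MG and MZ stand for the libraries labelled so.

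Ccnb1 and Wee2 dominated the switch at the RNA level. Over the 9 libraries Ccnb1 averaged 739 ± 166 FPKM (SD), rank 115 of all rows, and Wee2 averaged 284 ± 57.3 FPKM, rank 326. Ccnb2 followed at 86.9 ± 17.3 FPKM, and Ccnb1 was above Wee2, and Wee2 above Ccnb2, in 9 of 9 libraries without overlap of their ranges. Cdc25a (17.2 ± 3.37 FPKM), Cdk1 (16.4 ± 4.84 FPKM) and Cdc25b (15.5 ± 4.62 FPKM) lay next to each other within their spread. Pkmyt1 (7.49 ± 2.96 FPKM), Wee1 (7.39 ± 5.02 FPKM) and Ccnb3 (6.78 ± 2.24 FPKM) also overlapped, and Cdc25c was last at 2.24 ± 1.78 FPKM. The transcript of the catalytic subunit was thus far below that of its main cyclin: the summed cyclin B level was 47.8 ± 1.36 times that of Cdk1 in MG, 43.0 ± 7.92 times in MZ and 69.6 ± 17.8 times in WT (SD, n = 3 each).

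**Figure D1:**
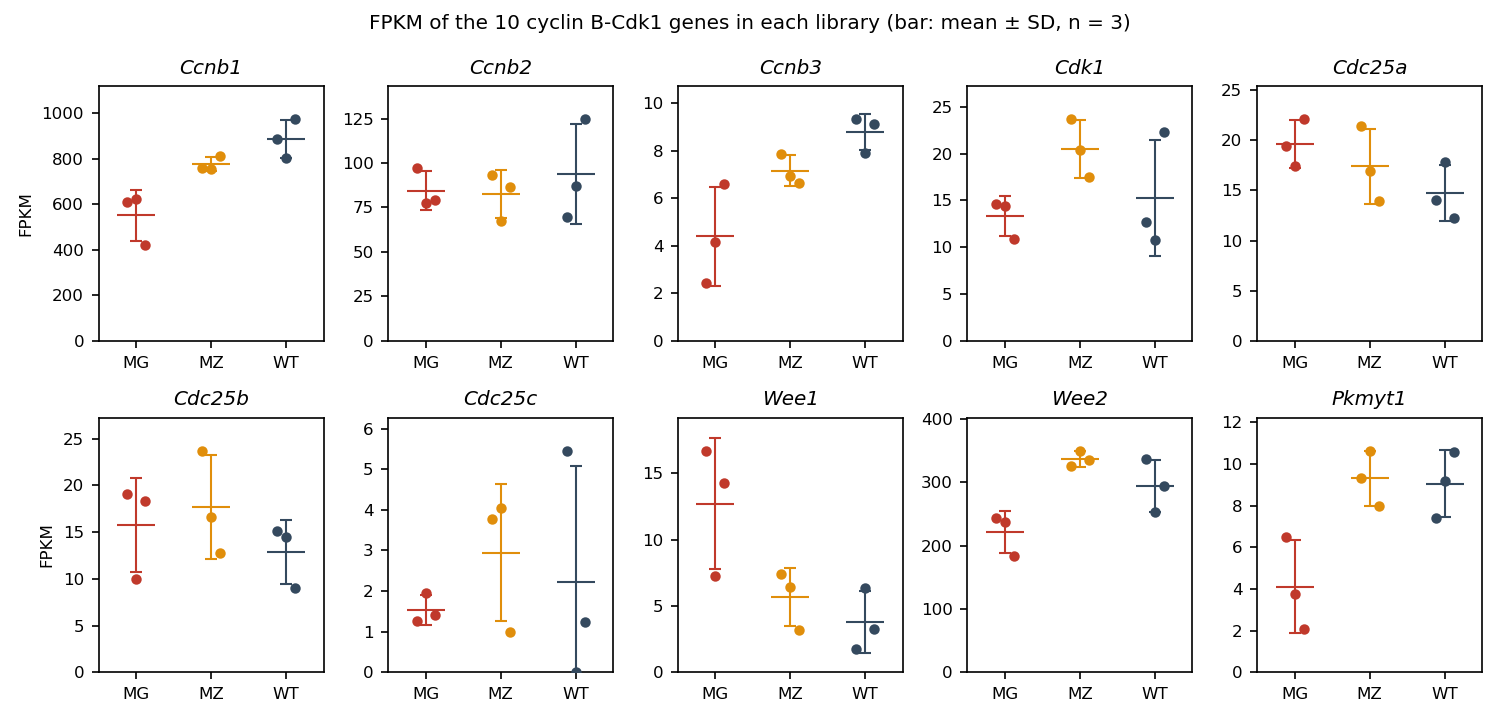
FPKM (vertical axes, from 0) of each of the 10 genes in the MG, MZ and WT libraries; points are libraries and bars the mean ± SD of 3. The MG points of Ccnb1, between 420 and 623 FPKM, sit below the MZ and WT points, and the MG points of Wee1, between 7.22 and 16.7 FPKM, sit above the WT points.

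No member passed the limma test over all 10801 tested genes in any of the 3 comparisons, at a Benjamini-Hochberg adjusted p of 0.05. That threshold was passed by 0.343% of genes for MG against WT, 0.037% for MZ against WT and 0.13% for MG against MZ. At an unadjusted limma p under 0.05, 1 member was higher (8.43% of all genes) and 4 were lower (9.31%) in MG than in WT, 5 of 10 in all where 17.7% of genes reached that level. For MZ against WT 0 members were higher (2.68% of genes) and 0 lower (3.62%), with 6.3% of genes in all. Between MG and MZ 1 member was higher (8.32%) and 3 were lower (9.32%) in MG, 4 of 10 where 17.6% of genes reached that level.

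The 3 libraries of one group could also lie wholly outside those of the other. In MG relative to WT this held for 1 member that was higher (11.6% of genes) and 4 that were lower (9.89%), 5 of 10 beside 21.5% of genes. In MZ relative to WT it held for 0 higher (5.67%) and 1 lower (6.52%), beside 12.2% of genes, and in MG relative to MZ for 0 higher (12.8%) and 5 lower (12.3%), beside 25.2%. With every library brought to the same FPKM sum, 2 members were wholly higher (21.2% of genes) and 1 lower (3.22%) in MG than in WT, 3 of 10 beside 24.4%. On that scale MZ had 1 member wholly higher (5.02%) and 1 lower (6.8%) than WT, beside 11.8%, and MG had 3 wholly higher (28.1%) and 2 lower (4.58%) than MZ, beside 32.7%. In the authors' deposited table the members with a q-value under 0.05 numbered 0 for MG and WT (1.84% of rows), 0 for MZ and WT (0.351%) and 1 for MG and MZ (4.03%). These members were picked with earlier results of the data known, so the counts describe them and are no test. A p above the threshold does not show that levels were alike, and the intervals below give the sizes still compatible with each fit.

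**Figure D2:**
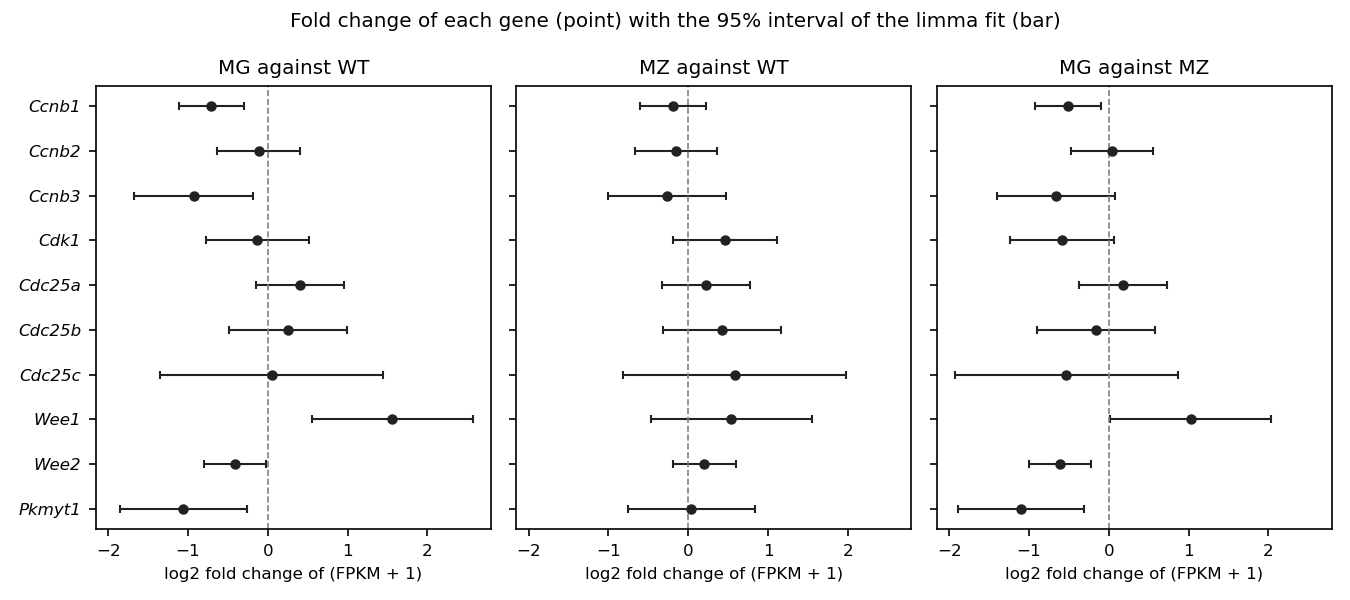
Log2 fold change on the log2(FPKM + 1) scale (horizontal axes) of each gene in 3 comparisons, with bars for the 95% interval of the limma fit, not adjusted for the number of genes. For MG against WT the bars of Ccnb1, Ccnb3, Wee2 and Pkmyt1 lie below 0 and that of Wee1 above 0, while for MZ against WT all 10 bars cross 0.

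Ccnb1 encodes cyclin B1, the main partner of Cdk1 in meiotic resumption (chromosome 13, 100778650 to 100786570, minus strand, GRCm38). It had 611, 623 and 420 FPKM in MG, 761, 756 and 813 FPKM in MZ, and 886, 805 and 974 FPKM in WT. All 3 MG values were below all MZ and all WT values, MG 3 was the lowest, and MZ and WT overlapped. MG differed from WT by a log2 fold change of -0.71 ± 0.19 (SE, 95% interval -1.12 to -0.29, limma adjusted p = 0.11). MZ differed from WT by -0.19 ± 0.19 (95% interval -0.60 to 0.22, limma adjusted p = 0.90), and the value was -0.52 ± 0.19 for MG against MZ (95% interval -0.93 to -0.10, limma adjusted p = 0.18). Between MG and MZ the value was -0.08 at the same FPKM sum, and its sign turned, to 0.027, with quantile normalization. The authors' deposited table gives Ccnb1 p = 0.0091 and q = 0.0632 for MG and WT, from Cuffdiff. As a share of the library's FPKM sum, Ccnb1 took 0.110, 0.121 and 0.0981% in MG, 0.112, 0.112 and 0.124% in MZ, and 0.123, 0.138 and 0.149% in WT. On that scale the MG values still lay below the WT values but overlapped the MZ values. With libraries brought to the same FPKM sum Ccnb1 in MG differed from WT by a log2 fold change of -0.32, where the median of all tested genes stood at 0.36. The oocyte marker sum was also lowest in MG 3, and its part in the Ccnb1 result was not tested.

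Ccnb2, the cyclin that can stand in for cyclin B1 in mouse oocytes (chromosome 9, 70407692 to 70421547), had 97.0, 77.3 and 79.2 FPKM in MG, 93.3, 67.5 and 86.5 FPKM in MZ, and 69.5, 87.0 and 125 FPKM in WT. On the deposited scale the groups overlapped in every pairing. For MG against MZ the log2 fold change was 0.04 as deposited and 0.47 at the same FPKM sum. On the latter scale MG lay wholly above MZ, as did 28.1% of all tested genes. Relative to WT, MG had a log2 fold change of -0.11 ± 0.24 (SE, 95% interval -0.63 to 0.41, limma adjusted p = 0.85), and the sign turned to 0.27 with libraries at the same FPKM sum. The ratio of Ccnb1 to Ccnb2 within a library, which does not depend on scaling, was 6.30, 8.06 and 5.30 in MG, 8.15, 11.2 and 9.40 in MZ, and 12.8, 9.26 and 7.82 in WT. The MG and WT ratios overlapped, and the MG ratios were all below the MZ ratios.

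Ccnb3, needed for exit from the first meiotic metaphase in mouse oocytes (chromosome X, 6979652 to 7041619), had 2.45, 4.16 and 6.59 FPKM in MG, 7.88, 6.93 and 6.64 FPKM in MZ, and 9.32, 7.90 and 9.14 FPKM in WT. These values rest on about 5 to 23 fragments per library. MG lay below MZ and below WT without overlap, and MZ was narrowly below WT. Set against WT, the log2 fold change of Ccnb3 was -0.93 ± 0.34 in MG (SE, 95% interval -1.67 to -0.19, limma adjusted p = 0.19) and -0.26 ± 0.34 in MZ (95% interval -1.01 to 0.48, adjusted p = 0.91). In shares of the FPKM sum the MG and WT values of Ccnb3 overlapped, and the log2 fold change at the same FPKM sum was -0.59.

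Cdk1 is the catalytic subunit (chromosome 10, 69335146 to 69352938, minus strand). It had 14.6, 14.5 and 10.9 FPKM in MG, 23.7, 20.4 and 17.5 FPKM in MZ, and 12.7, 10.8 and 22.4 FPKM in WT. The MG values were all below the MZ values, and WT, with WT 3 apart from its other libraries, overlapped both groups. In shares of the FPKM sum, 0.00264, 0.00281 and 0.00255% in MG, 0.00349, 0.00302 and 0.00266% in MZ, and 0.00176, 0.00185 and 0.00342% in WT, MG and MZ overlapped. Cdk1 had a log2 fold change of -0.13 ± 0.30 for MG against WT (SE, 95% interval -0.78 to 0.52, limma adjusted p = 0.86), 0.46 ± 0.30 for MZ against WT (95% interval -0.19 to 1.11, limma adjusted p = 0.84) and -0.59 ± 0.30 for MG against MZ (95% interval -1.24 to 0.06, limma adjusted p = 0.33). The first of these had the opposite sign, 0.24, at the same FPKM sum and 0.16 without WT 3. At the same FPKM sum MG differed from MZ by -0.18 in place of -0.59.

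Promoters are shown for Ccnb1, Cdk1 and Wee2. Each runs from 250 bases before to 50 after the RefSeq start (GRCm38.p6), 5′ to 3′ on the gene's strand. Capitals mark the CCAAT box (CCAAT on either strand) and the cell-cycle homology element (TTTGAA or TTCGAA on either strand), letters known from promoters of mitotic genes. RefSeq sequences were matched for 7 of the 10 members, all except Cdc25c, Wee1 and Pkmyt1. The Ccnb1 promoter is at chr13:100786437-100786736, that of Cdk1 at chr10:69352863-69353162, both on the minus strand, and that of Wee2 at chr6:40442613-40442912 on the plus strand, inside the span of the gene in GENCODE.
Ccnb1: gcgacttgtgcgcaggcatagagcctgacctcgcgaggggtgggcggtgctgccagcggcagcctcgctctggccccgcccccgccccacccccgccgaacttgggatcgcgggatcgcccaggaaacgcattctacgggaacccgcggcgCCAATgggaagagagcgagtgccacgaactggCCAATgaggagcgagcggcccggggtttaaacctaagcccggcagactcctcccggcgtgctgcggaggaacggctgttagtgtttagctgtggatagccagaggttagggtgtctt
Cdk1: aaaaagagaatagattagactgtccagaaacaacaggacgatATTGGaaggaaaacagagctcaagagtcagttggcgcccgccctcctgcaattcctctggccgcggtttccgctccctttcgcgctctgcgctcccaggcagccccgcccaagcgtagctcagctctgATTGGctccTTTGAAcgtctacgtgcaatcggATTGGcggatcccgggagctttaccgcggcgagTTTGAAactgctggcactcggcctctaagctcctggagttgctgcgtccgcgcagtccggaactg
Wee2: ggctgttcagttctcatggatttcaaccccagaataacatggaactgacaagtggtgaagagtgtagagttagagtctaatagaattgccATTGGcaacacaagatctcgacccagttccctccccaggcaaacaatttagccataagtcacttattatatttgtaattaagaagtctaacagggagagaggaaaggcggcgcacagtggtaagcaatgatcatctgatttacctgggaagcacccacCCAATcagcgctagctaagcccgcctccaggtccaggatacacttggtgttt
A CCAAT match was found in 6 of the 7 windows, all but that of Ccnb3, and in 37.9% of all 27025 promoters of this length. The cell-cycle homology letters were found in those of Ccnb2, Cdk1 and Cdc25b, and in 19.4% of all promoters. The Wee2 window held 5 CpG dinucleotides, against 29 in that of Ccnb1 and a median of 7 over all promoters. These matches describe the letters only.

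The mRNA of cyclin B1 is stored in the oocyte and translated after cytoplasmic polyadenylation, which acts through a U-rich element near the 3′ end. The last 150 bases of the longest GENCODE M21 transcript with a RefSeq entry were searched for TTTTAT or TTTTAAT on the sense strand. A match was found for Ccnb1, Ccnb3 and Wee2, and for 22% of 20511 genes. The sites lie at chr13:100778770-100778799 (minus strand), chrX:6979702-6979731 (minus strand) and chr6:40466780-40466809 (plus strand), with the element, and for Wee2 the AATAAA signal beside it, in capitals.
Ccnb1: ttgctgTTTTAATttatacatctgatatca
Ccnb3: tcttgaaattacTTTTATgaaagaagagaa
Wee2: tcattgtaAATAAAgaTTTTATcttatcca
A match says nothing of whether the element acts in these oocytes.

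Of the phosphatases, Cdc25b is the form needed for meiotic resumption in mouse oocytes (chromosome 2, 131186949 to 131198497). It had 19.0, 10.0 and 18.3 FPKM in MG, 23.7, 16.6 and 12.8 FPKM in MZ, and 15.2, 14.5 and 8.97 FPKM in WT. The groups overlapped. Set against WT, its log2 fold change was 0.26 ± 0.34 in MG (SE, 95% interval -0.48 to 0.998, limma adjusted p = 0.73) and 0.42 ± 0.34 in MZ (95% interval -0.32 to 1.16, limma adjusted p = 0.88). The table's locus for Cdc25b spans 477 kb and is shared by 12 other rows, so its fragments may have been split.

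Cdc25a, a phosphatase of S-phase and M-phase kinases (chromosome 9, 109875579 to 109893895), had 19.4, 17.4 and 22.1 FPKM in MG, 21.4, 16.9 and 13.96 FPKM in MZ, and 14.1, 17.8 and 12.3 FPKM in WT. The MG and WT values overlapped through MG 2 and WT 2. Relative to WT, MG had a log2 fold change of 0.40 ± 0.25 (SE, 95% interval -0.15 to 0.95, limma adjusted p = 0.44). In shares of the FPKM sum Cdc25a took 0.00349, 0.00338 and 0.00515% in MG, 0.00315, 0.00250 and 0.00212% in MZ, and 0.00196, 0.00305 and 0.00188% in WT, with all MG shares above all MZ and WT shares. On that scale 21.2% of all tested genes were likewise wholly higher in MG than in WT.

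Cdc25c, the M-phase phosphatase of somatic cells (chromosome 18, 34732993 to 34751533), had 1.26, 1.94 and 1.41 FPKM in MG, 3.78, 4.04 and 1.00 FPKM in MZ, and 5.45, 0 and 1.24 FPKM in WT. These are about 0 to 5 fragments per library, and at this depth a difference of the size of the interval, -1.35 to 1.45 for MG against WT, was not detectable. The 3 phosphatases together reached 36.9 ± 6.67 FPKM in MG, 38.0 ± 10.6 FPKM in MZ and 29.8 ± 6.45 FPKM in WT (SD, n = 3 each), within each other's spread.

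Wee2, also called Wee1B, is the oocyte kinase that keeps Cdk1 off in prophase arrest and again at egg activation (chromosome 6, 40439088 to 40466813). It had 244, 238 and 183 FPKM in MG, 326, 350 and 335 FPKM in MZ, and 336, 253 and 295 FPKM in WT. MG lay wholly below WT and, by a wider gap, wholly below MZ, and the MZ values lay in a narrow band that overlapped WT. Set against WT, its log2 fold change was -0.41 ± 0.18 in MG (SE, 95% interval -0.80 to -0.02, limma adjusted p = 0.26), 0.20 ± 0.18 in MZ (95% interval -0.19 to 0.59, limma adjusted p = 0.89), and between MG and MZ it was -0.61 ± 0.18 (95% interval -1.002 to -0.22, limma adjusted p = 0.11). The authors' deposited table gives q = 0.014 for Wee2 between MG and MZ, the 1 member value under 0.05 in the 3 comparisons. The same column has 4.03% of all rows under 0.05. Brought to the same FPKM sum, Wee2 had a log2 fold change of -0.02 for MG against WT, and its shares of the sum were 0.0441, 0.0463 and 0.0428% in MG and 0.0468, 0.0433 and 0.0450% in WT, which overlap. The MZ shares, 0.0481, 0.0518 and 0.0509%, lay above both. Between MG and MZ the log2 fold change was -0.18 at the same FPKM sum and -0.13 with quantile normalization.

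Wee1, the kinase of somatic cells (chromosome 7, 110122046 to 110143286), had its highest mean in MG, where Wee2 had its lowest. It had 16.7, 7.22 and 14.2 FPKM in MG, 7.38, 6.44 and 3.19 FPKM in MZ, and 1.73, 6.34 and 3.28 FPKM in WT, from about 24, 13 and 37 fragments in MG, 11, 15 and 6 in MZ and 3, 10 and 5 in WT. All MG values were above all WT values, and MG 2 was the lowest of MG and overlapped MZ. Wee1 had a log2 fold change of 1.56 ± 0.46 for MG against WT (SE, 95% interval 0.55 to 2.57, limma adjusted p = 0.13), the largest of the 10 members in size, and 0.54 ± 0.46 for MZ against WT (95% interval -0.47 to 1.54, limma adjusted p = 0.89). For MG against MZ it was 1.03 ± 0.46 (95% interval 0.02 to 2.04, limma adjusted p = 0.27). At the same FPKM sum MG differed from WT by 1.89 (limma adjusted p = 0.083), and the MG shares were above all MZ and WT shares.

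Pkmyt1, the membrane-bound kinase that phosphorylates Cdk1 at the endoplasmic reticulum and Golgi (chromosome 17, 23726336 to 23736735), had 6.51, 3.76 and 2.08 FPKM in MG, 9.30, 10.6 and 7.98 FPKM in MZ, and 7.41, 9.18 and 10.6 FPKM in WT. MG lay below MZ and WT without overlap. Pkmyt1 had a log2 fold change of -1.06 ± 0.36 for MG against WT (SE, 95% interval -1.85 to -0.27, limma adjusted p = 0.17), 0.04 ± 0.36 for MZ against WT (95% interval -0.75 to 0.83, limma adjusted p = 1) and -1.10 ± 0.36 for MG against MZ (95% interval -1.89 to -0.30, limma adjusted p = 0.15). The MG values rest on about 6, 4 and 3 fragments and the MZ values on about 8, 14 and 9. The WT values rest on about 7, 8 and 9, so MG 1 and WT 1 stood at about 6 and 7. In shares of the FPKM sum MG still lay below MZ but overlapped WT. The table's locus is shared with Paqr4.

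Ratios within a library cancel its scaling. The ratio of Ccnb1 to Wee2 was 2.499, 2.62 and 2.29 in MG, 2.33, 2.16 and 2.43 in MZ, and 2.64, 3.18 and 3.31 in WT. Both MG and MZ lay below WT, narrowly for MG 2 and WT 1, and overlapped each other. Wee2 was 14.7, 32.9 and 12.9 times as high as Wee1 in MG, 44.2, 54.3 and 105 times in MZ, and 194, 40.0 and 89.9 times in WT, so that the MG ratios were all below those of MZ and WT. Even so, Wee2 made up 91.3 to 95.6% of the summed level of the 3 inhibitory kinases in MG, 95.1 to 96.8% in MZ and 94.2 to 97.4% in WT. The summed phosphatases relative to the summed inhibitory kinases stood at 0.148, 0.118 and 0.210 in MG, 0.143, 0.102 and 0.0801 in MZ, and 0.1004, 0.120 and 0.0729 in WT. The balance of phosphatase to kinase RNA overlapped between all groups. The ratio of Wee2 to Cdc25b also overlapped between all groups. It ranged from 9.99 to 23.8 in MG, 13.8 to 26.2 in MZ and 17.5 to 32.8 in WT. The share of all gene pairs whose ratios lie apart between groups was not computed. These ratios are therefore a description without a test.

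**Figure D3:**
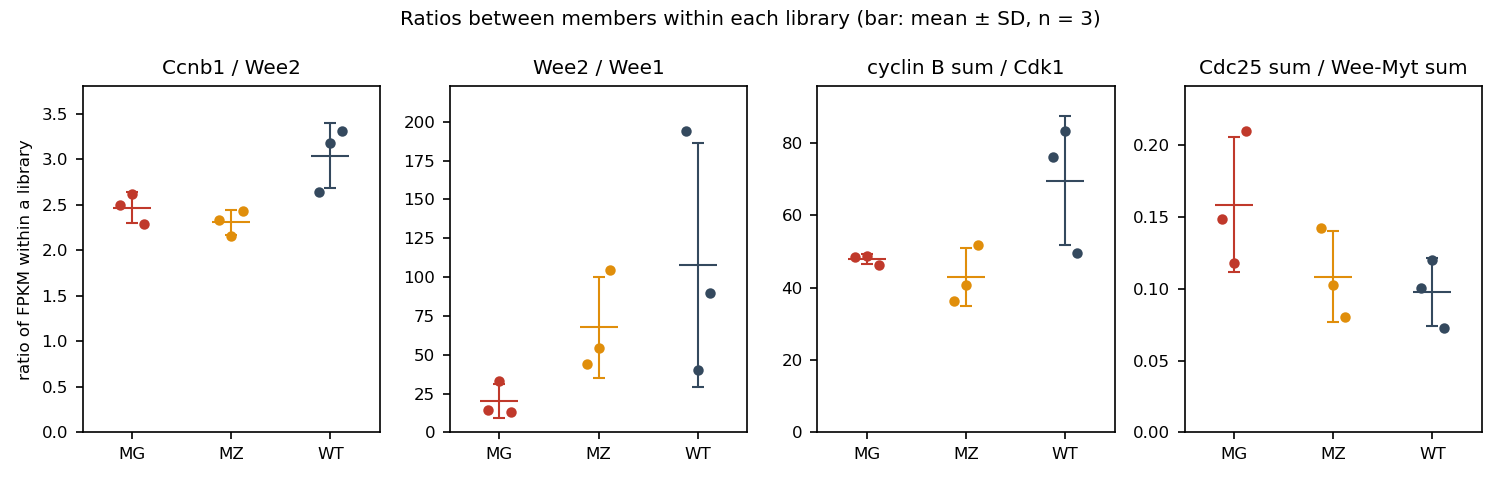
Ratios of FPKM within each library (vertical axes, from 0) in MG, MZ and WT; points are libraries and bars the mean ± SD of 3. The Ccnb1 to Wee2 ratio lies between 2.16 and 2.62 in MG and MZ and between 2.64 and 3.31 in WT, and the Wee2 to Wee1 ratio is at most 32.9 in MG and at least 40.0 in MZ and WT.

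The 10 genes together held 0.186 ± 0.008% of the FPKM sum in MG, 0.191 ± 0.006% in MZ and 0.206 ± 0.017% in WT (SD, n = 3 each), with overlap between MG and WT. For MG against WT 6 members had a negative and 4 a positive log2 fold change, with a median of -0.12 beside 0.04 over all tested genes. For MZ against WT 3 were negative and 7 positive (median 0.21, all genes 0.01), and for MG against MZ 7 were negative and 3 positive (median -0.52, all genes 0.04). The comparisons share libraries pairwise, so their values stand side by side only.

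The wider network round Cdk1 was described by 46 genes, of which 41 were tested. They cover Greatwall kinase with the PP2A-B55 phosphatase it inhibits, the Polo and Aurora A kinases that help Cdc25 to fire, the Cdk-activating kinase and Cks subunits, checkpoint kinases with 14-3-3 proteins and Cdk inhibitors, opposing phosphatases, regulators of cyclin B translation and CaMKII. By limma 0 of 41 passed in each comparison. For MG against WT, 22 were positive and 19 negative (median 0.11), and 3 were higher and 4 lower at an unadjusted p under 0.05, which 17.7% of all tested genes reached. For MZ against WT, 18 were positive and 23 negative (median -0.02), with 0 higher and 1 lower at that level, beside 6.3% of all tested genes. For MG against MZ, 23 were positive and 18 negative (median 0.07), with 5 higher and 5 lower, beside 17.6%.

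The smallest p of the list belonged to Aurka, Aurora A kinase, which activates Polo kinase ahead of M phase. Aurka had 133, 145 and 97.4 FPKM in MG, 265, 239 and 248 FPKM in MZ, and 285, 216 and 245 FPKM in WT. MG lay wholly below both other groups, which overlapped each other. MG differed by a log2 fold change of -0.998 ± 0.192 from WT (SE, limma adjusted p = 0.0597, 0.061 to 0.16 over 15 alternatives) and of -1.02 ± 0.19 from MZ (limma adjusted p = 0.068, 0.031 to 0.24 over 15 alternatives). Plk1, Polo kinase, which turns on Cdc25 and turns off Pkmyt1, averaged 55.7 ± 6.14 FPKM in MG and 94.4 ± 7.40 FPKM in MZ (SD, n = 3 each, limma adjusted p = 0.13). In WT Plk1 averaged 81.2 ± 24.7 FPKM and overlapped MG (limma adjusted p = 0.30 for MG against WT). On the deposited scale the median log2 fold change in MG relative to WT was -0.40 over the 4 Polo and Aurora A genes. It was -0.28 over 11 checkpoint, 14-3-3 and inhibitor genes and -0.03 over 5 Cdk-activating kinase and Cks genes. The 1 tested CaMKII gene stood at 0.33. The median was 0.16 over 5 regulators of cyclin B translation, 0.17 over 10 Greatwall and PP2A-B55 genes and 0.53 over 5 opposing phosphatases. The same quantity over all tested genes was 0.04, and 0.36 with libraries at the same FPKM sum, so signs near 0 depend on the scaling.

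Chek1, the checkpoint kinase that restrains Cdc25, averaged 149 ± 15.1 FPKM in MG and 208 ± 21.2 FPKM in WT (SD, n = 3 each, limma adjusted p = 0.17). Cks1b, a small subunit that binds Cdk1, averaged 382 ± 56.8 FPKM in MG and 556 ± 139 FPKM in WT (limma adjusted p = 0.21). These means are on the deposited scale, and values of Chek1 and Cks1b at the same FPKM sum are not given here. On that scale the median log2 fold change of the network list for MG against WT was 0.40 in place of 0.11. For MZ against WT the smallest p of the list belonged to Ywhah, followed by Ywhag, whose means went opposite ways. Both encode 14-3-3 proteins, which hold phosphorylated Cdc25 in the cytoplasm. The other tested 14-3-3 genes had log2 fold changes between -0.036 and 0.016 for MZ against WT. Ywhah averaged 78.7 ± 12.7 FPKM in MZ and 121 ± 5.40 FPKM in WT (limma adjusted p = 0.62). Ywhag averaged 54.1 ± 9.27 FPKM in MZ and 39.5 ± 6.69 FPKM in WT (limma adjusted p = 0.79). Cdkn1b, the Cdk inhibitor p27, averaged 4.53 ± 2.87 FPKM in MZ and 8.90 ± 4.61 FPKM in WT (limma adjusted p = 0.82). Ppp1cb, a catalytic subunit of protein phosphatase 1, averaged 22.0 ± 6.97 FPKM in MG and 9.81 ± 4.62 FPKM in MZ (limma adjusted p = 0.14). Its MG and MZ values overlapped, and it averaged 12.2 ± 0.89 FPKM in WT. Ppp2r2c and Camk2a were at 0 in all libraries, and Chek2, Camk2b and Camk2d did not reach the filter, with highest values of 2.13, 0.36 and 0.76 FPKM.

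**Figure D4:**
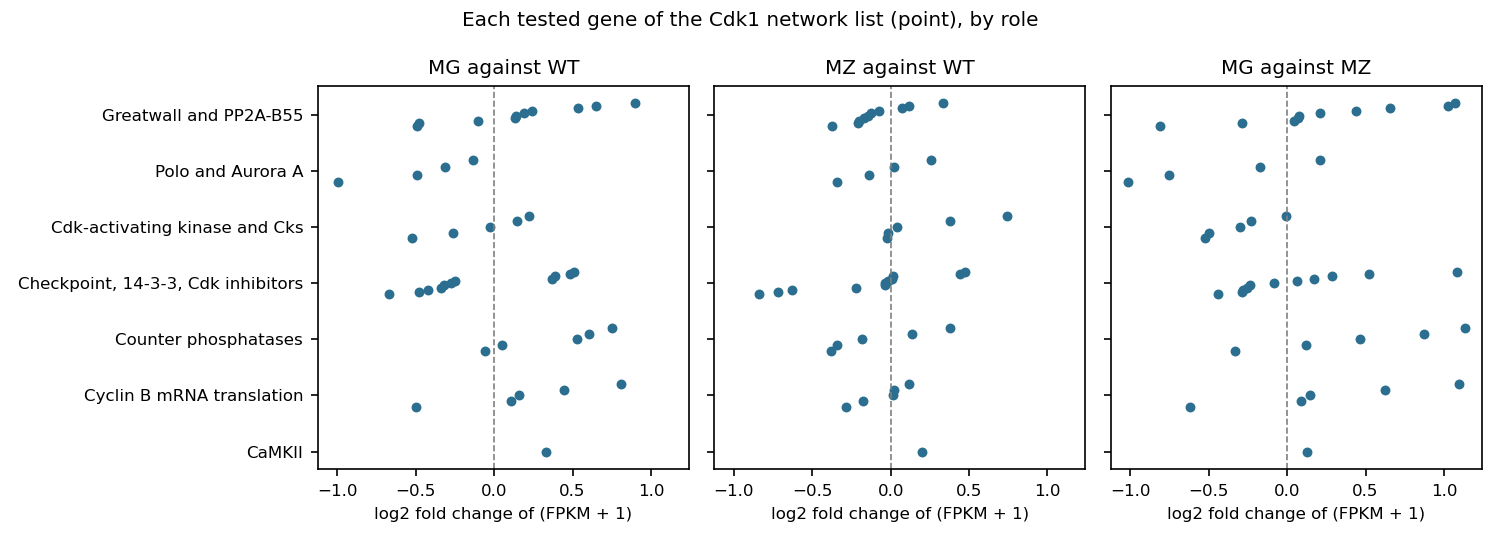
Log2 fold change on the log2(FPKM + 1) scale (horizontal axes) of the 41 tested genes of the wider network, 1 point a gene, grouped by role down the page. Aurka is the leftmost point in the Polo and Aurora A row, at -0.998 for MG against WT and -1.02 for MG against MZ.

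Among 6108 tested genes with a mean of at least 5 FPKM, those whose log2 level over the 9 libraries ran most like a member were listed as a description, without a test. For Ccnb1 they were Rnf122 (Pearson r = 0.991) and Sdhd (r = 0.983), and for Wee2 they were Omt2a (r = 0.992) and Tsc22d1 (r = 0.988). For Cdk1 they were Cox5b (r = 0.923) and Pygo1 (r = 0.916), and for Cdc25b, Ttpal (r = 0.869) and Tfip11 (r = 0.842). All values of a library share its depth and scaling, and the FPKM sum was lowest in MG 3, where Ccnb1 and Wee2 were lowest too. Group means were not removed, so differences between groups enter these correlations.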

How the data were processed

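RNA of fully grown oocytes was amplified by Smart-seq2 and made into NEBNext Ultra libraries, per the labels' protocols. Paired reads of 150 bases were aligned to mm10 with TopHat2 2.0.13 and turned into FPKM with Cufflinks 2.2.1, per the submitters' processing notes and the series design. The deposited table also holds the authors' Cuffdiff p-value and q-value per gene and pair of groups. No source used here states how strand was handled.

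Of 24255 rows, 27 whose symbol had become a date were left out. Genes with at least 1 FPKM in at least 3 of 9 libraries (10801) were fitted as log2(FPKM + 1), which understates the change of low genes, by limma 3.58.1 in R 4.3.3 (eBayes with a mean-variance trend, all 9 libraries, two-sided, Benjamini-Hochberg over all tested genes). Alternatives changed the pseudocount (0.5), filter, scaling, libraries and a replicate block. FPKM are not counts. Fragments were estimated from FPKM, the longest transcript length and the lowest FPKM steps of 2220 genes (minimum length 1500 bp). Of the values of these 2220 genes in a window round the fitted 1-fragment peak, 81.2 to 91.3% lay within 15% of that peak. The window is centred on the peak and leaves out values of more than 1 fragment, so this share is no independent check of the estimate. Reads were amplified and carry no molecular identifiers, so fragment numbers bear on counting error only. Coordinates are from GENCODE M21 (GRCm38), 1-based. Processed pseudogenes Ccnb1-ps and Ccnb2-ps have no row and could share reads with their parent genes. The members, lists and rules were chosen with earlier results of these data known. By rule the text names the 10 members, Mtor, Gdf9 and Zp3 as checks of the labels, the called or else the 3 lowest-p genes of the network list per comparison, and the 2 genes most like each of 4 members. Outside the rule, markers at 0 in all libraries, network genes that were not tested and a gene that shares a locus with a member are named, chosen after their values were seen.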

Additional observations from a re-analysis of the deposited data

Results flagged for a closer look

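For Wee2 every MG library (183 to 244 FPKM) was below the WT mean of 295 FPKM and every MZ library (326 to 350 FPKM) above it. This arrangement was looked for among the 10 members only, and its share over all tested genes was not computed. It requires MG and MZ values without overlap, which 25.2% of all tested genes had. The direct test of MG against MZ gave a log2 fold change of -0.61 (limma adjusted p = 0.11) and did not pass. At the same FPKM sum it was -0.18 and with quantile normalization -0.13, and in shares of the FPKM sum MG 2, at 0.0463%, was above the WT mean of 0.0450%, so the arrangement held on the deposited scale and not in shares.

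Cdk1 showed the same arrangement on the deposited scale, with 10.9 to 14.6 FPKM in MG and 17.5 to 23.7 FPKM in MZ round a WT mean of 15.3 FPKM. The log2 fold change for MG against MZ was -0.59 (limma adjusted p = 0.33), which did not pass, and the WT libraries ranged from 10.8 to 22.4 FPKM. In shares of the FPKM sum all 3 MG libraries, at 0.00255 to 0.00281%, were above the WT mean of 0.00234% and overlapped MZ, at 0.00266 to 0.00349%, and the log2 fold change for MG against MZ was -0.18.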

How the results depend on the processing

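No member was called under any of the 15 alternatives in any comparison, and of 450 member values 429 kept their sign and 21 did not. The values that changed sign, all with a limma adjusted p of 0.54 or more, were as follows. At the same FPKM sum they were Ccnb2 (0.27) and Cdk1 (0.24) for MG against WT, Pkmyt1 (-0.0014) for MZ against WT and Cdc25b (0.25) for MG against MZ. With quantile normalization they were Ccnb2 (0.086), Cdc25c (-0.16) and Wee2 (0.0086) for MG against WT, and Ccnb1 (0.027) for MG against MZ. Leaving out 1 library, the ranges that crossed 0 were as follows. For MG against WT Ccnb2 ran from -0.31 (without WT 1) to 0.11 (without WT 3), Cdk1 from -0.33 (without WT 2) to 0.16 (without WT 3), and Cdc25c from -0.59 (without WT 2) to 0.75 (without WT 1). For MZ against WT Ccnb2 ran from -0.35 (without WT 1) to 0.071 (without WT 3), Cdc25c from -0.061 (without WT 2) to 1.28 (without WT 1), and Pkmyt1 from -0.083 (without WT 1) to 0.15 (without WT 3). For MG against MZ Ccnb2 ran from -0.095 (without MZ 2) to 0.14 (without MZ 1), and Cdc25b from -0.36 (without MZ 3) to 0.12 (without MG 2). The median of all tested genes for MG against WT was 0.36 at the same FPKM sum and 0.04 as deposited. Ccnb1 for MG against WT was -0.23 with quantile normalization, and -0.52 without MG 3.

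The number of genes called over the whole table, 37 (MG and WT), 4 (MZ and WT) and 14 (MG and MZ), moved more. For MG against WT it was 17 without the filter, 64 at the same FPKM sum, 21 with quantile normalization, 5 in a fit of the 2 groups alone, and 3 to 24 leaving out 1 library. For MZ against WT it was 2 with a pseudocount of 0.5, 2 without the filter, 1 at the same FPKM sum, 1 with quantile normalization, and 0 to 6 leaving out 1 library. For MG against MZ it was 9 without the filter, 31 at the same FPKM sum, 100 in a fit of the 2 groups alone, and 0 to 214 leaving out 1 library. The cause was not tested. Deviations of same-numbered libraries from their group means correlated at -0.070 to 0.073. These values, from 3 libraries a group, cannot decide whether the numbers pair the samples. With a replicate block 13, 0 and 159 genes were called in the same order of comparisons, and 1 gene of the wider network. That gene was Aurka for MG against MZ (limma adjusted p = 0.041), which was also called in the fit of the 2 groups alone (0.0498, 1 gene), without MG 1 (0.042) and without WT 1 (0.031), so its count was 0 to 1 leaving out 1 library.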

Other observations

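Pairs of members were also compared over the 9 libraries on the log2(FPKM + 1) scale, as a description with no test, since all values of a library share its depth and scaling. Group means were not removed, so genes that are low or high together in MG correlate through the groups alone. Pkmyt1 rests on about 3 to 14 fragments per library. Ccnb1 ran with Pkmyt1 (Pearson r = 0.885, Spearman rho = 0.567) and with Wee2 (r = 0.820, rho = 0.600), and Wee2 with Pkmyt1 (r = 0.831, rho = 0.717). Wee1 ran with Cdc25a (r = 0.839, rho = 0.833) and against Ccnb1 (r = -0.810, rho = -0.883). Ccnb2 and Cdc25c showed weaker relations to Ccnb1 (r = 0.272 and 0.101).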
